A study of Homo sapiens with 12 samples.

Results

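Transcripts of 10 secreted interleukins and chemokines of the senescence-associated secretory phenotype (SASP) were followed in senescent and proliferating lung fibroblasts. The genes were IL1A, IL1B, IL6, IL11, IL12A, LIF, CXCL8, CXCL1, CXCL12 and CCL2, taken by symbol from the 38716 gene symbols in the tables, and all 10 were present. The rule uses names alone and no measured value. The cells were IMR90, human lung fibroblasts kept as a cell line, read by Ribo-seq, which sequences the pieces of mRNA shielded by a ribosome, and by RNA-seq of poly(A) RNA. Proliferating cells (Pro) were set against cells of the line taken by continuous passaging to replicative exhaustion (Sen), and the labels name no treatment or genetic change in either state. Of the 6 independent lysates, 3 came from each state, and a lysate was split between both methods, so that 4 groups of 3 libraries were available. The line was used as 2 isolates that the labels do not assign to samples, so isolate and state cannot be told apart here. The RNA-seq tables of Pro, unlike those of Sen, are tagged with letters close to DMSO, a common solvent, and any effect of a solvent was not tested.

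Senescent cells stop dividing but stay metabolically active and release cytokines, chemokines, proteases and growth factors. In textbook accounts IL-1α held at the cell surface acts through its receptor and NF-κB to drive IL-6 and CXCL8, and IL-6, IL-11 and LIF all signal through the shared receptor chain gp130. Many of these mRNAs are short-lived because AU-rich elements in their 3′ UTRs recruit decay factors.

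The RNA-seq libraries held 7902427 to 14144455 reads in UTRs and CDS. The Ribo-seq libraries held 54421 to 1718521 CDS reads, and the libraries of Pro 1 (54421) and Sen 2 (54708) were far below the other 4. CDS reads made up 34.4% and 15% of assigned reads in these 2, against 54.7 to 88.8% in the other 4. In Pro 1 and Sen 2, a level of 3 footprint reads equals 50.5 and 51.2 CPM (counts per 1000000 reads, with TMM-scaled library sizes), against at most 5.66 CPM in the other Ribo-seq libraries. The labels were checked on CDKN1A, a cell cycle inhibitor, which averaged 504 CPM in Pro and 1532 CPM in Sen, and on LMNB1, a lamin lost in senescence, at 64.0 and 8.99 CPM. All 10 fibroblast markers were read, with a summed mRNA level of 31670 to 35640 CPM in Pro and 30120 to 34850 CPM in Sen. Of the 8 leukocyte markers, 5 had reads and CD3E and ITGAM were among those at 0, and the 8 summed to 0.976 to 1.21 CPM in Pro and 2.23 to 4.11 CPM in Sen. The part of this higher sum in the results was not tested. SPI1 added most to it in Sen 2 and Sen 3, with 24 and 26 reads, none of them in its CDS. CD14 had 3 reads over the Pro libraries and 30 over the Sen libraries, with 7, 11 and 9 in its CDS in Sen 1 to 3. Its Ribo-seq reads in the CDS numbered 0 in Pro and 9 in Sen. The 5 epithelial markers summed to 0.558 to 2.31 CPM in Pro and 1.32 to 1.46 CPM in Sen, with SFTPC at 0. The 5 endothelial markers summed to 54.4 to 62.1 CPM in Pro and 93.7 to 105.5 CPM in Sen, nearly all from TEK, with CDH5 at 0.

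Sequence elements of these genes are shown first because AU-rich elements and κB sites are the features for which the family is known. The nonamer TTATTTATT was searched on the sense strand of each gene's canonical 3′ UTR in GENCODE v44 lifted to GRCh37, counting overlapping matches. It was found in IL1B (2 matches), IL11 (6), LIF (2), CXCL8 (1) and CXCL1 (3), and not in IL1A, IL6, IL12A, CXCL12 or CCL2. Of 16888 canonical 3′ UTRs of at least 200 bases, 9.60% held it. Among 3′ UTRs of similar length the share was 3.80% for IL1B, 8.40% for IL11, 14.2% for LIF, 7% for CXCL8 and 5.30% for CXCL1. The first match in each is given with 9 bases on either side and the nonamer in capitals. The windows lie at chr2:113587573-113587599 on the minus strand (IL1B), chr19:55877316-55877342 on the minus strand (IL11), chr22:30636948-30636974 on the minus strand (LIF), chr4:74608382-74608408 on the plus strand (CXCL8) and chr4:74736392-74736418 on the plus strand (CXCL1).
IL1B: cttccctatTTATTTATTtatttgttt
IL11: agccagatcTTATTTATTtatttattt
LIF: tccgggcccTTATTTATTatttaaaca
CXCL8: tgtaaagtaTTATTTATTtgaatctac
CXCL1: gtcttctatTTATTTATTtattcatta

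The shorter pentamer ATTTA, the core of such elements, had a median of 1.77 matches per kb over the 16888 3′ UTRs. IL12A (17.4 per kb) and IL6 (14.1 per kb) held the densest runs of the 10, followed by IL1B (9.84), CXCL1 (7.77), CXCL8 (7.19), IL11 (5.54), IL1A (4.38), CXCL12 (3.19), CCL2 (2.66) and LIF (2.19). All 10 thus lay above that median, some of them by little. LIF was denser than 58% of the 3′ UTRs, CCL2, with 1 match, than 66.3%, CXCL12 than 74.7% and IL1A than 87.8%. The κB-like motif GGNNNTTCC was searched on both strands in the 250 bases before the RefSeq start site (GRCh38.p14). RefSeq promoters matched 8 of the 10 genes, without LIF and CCL2, and IL6, CXCL8 and CXCL1 held the motif, against 17.1% of 27305 promoters. The windows lie on the plus strand at chr7:22727119-22727145 (IL6), chr4:73740469-73740495 (CXCL8), and chr4:73869306-73869332 and chr4:73869331-73869357 (CXCL1, first and second), with the match in capitals. In CXCL8 and the first CXCL1 window the capitals match on both strands.
IL6: tcaaatgtgGGATTTTCCcatgagtct
CXCL8: gcaaatcgtGGAATTTCCtctgacata
CXCL1 first: ggaactccgGGAATTTCCctggcccgg
CXCL1 second: gggggctccGGGCTTTCCagccccaac

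At the mRNA level the 10 genes split. CXCL8, IL12A, IL11 and CCL2 rose in senescence, and CXCL12, LIF, IL6 and IL1B fell. These 8 passed the filter on low counts, and all 8 changed in edgeR's quasi-likelihood test at a Benjamini-Hochberg adjusted p under 0.15, the study's threshold, while IL1A and CXCL1 had too few reads to be tested. Of the 12787 genes tested, 73.6% changed at that threshold (36.6% higher and 37.0% lower), so a change was the common outcome. CXCL12 was below the filter's level of 0.9255 CPM in every Sen library and passed on Pro reads alone. CXCL8 was below that level in Pro 2. The count of 8 is therefore not evenly set against that share. For all 10 genes, the 2 untested ones included, the 3 senescent libraries lay wholly above or below the 3 proliferating ones, as they did for 67.8% of the genes tested (33.5% higher and 34.2% lower). The median log2 fold change was -0.31 for the 8 genes and -0.01 for all genes. In bulk RNA, fewer cells expressing a gene and less RNA per cell cannot be told apart.

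**Figure D1:**
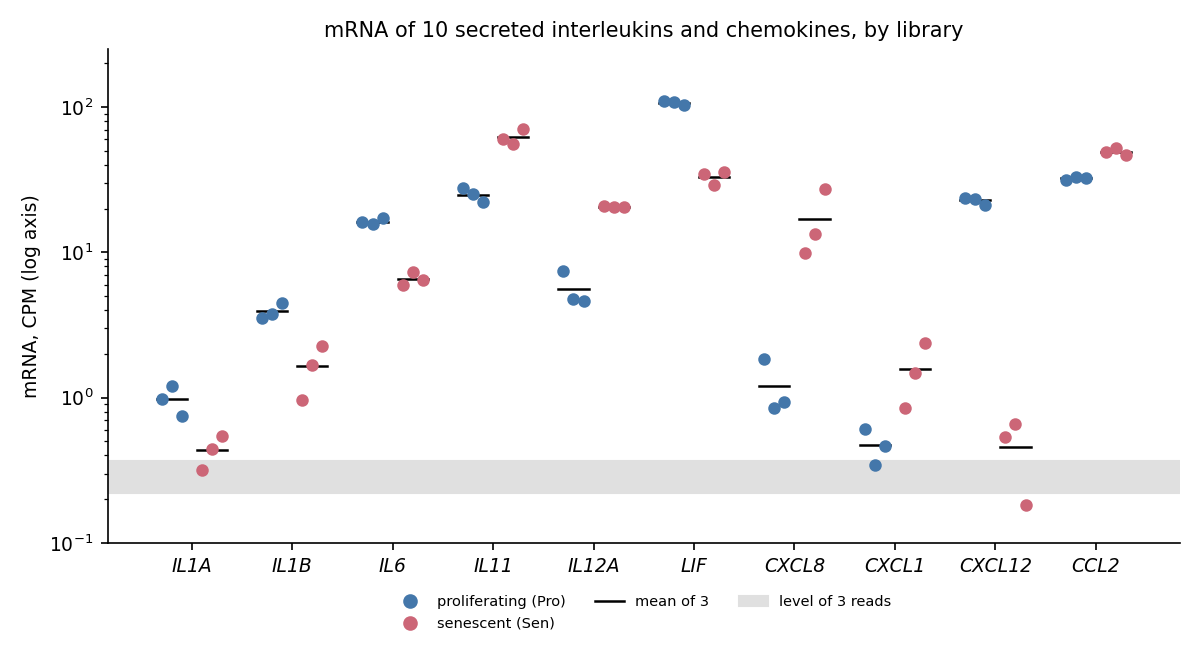
mRNA level of each gene in every RNA-seq library, in CPM on a log axis, with proliferating libraries in blue, senescent libraries in red and a black line for the mean of 3. The states do not overlap for any of the 10 genes, and CXCL12 in Sen lies close to the grey band that marks the level of 3 reads, with 1 library below it.

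IL1A and IL1B encode the secreted IL-1 ligands and lie 45257 bases apart on chromosome 2 (GRCh37, IL1A at chr2:113531502-113542070 and IL1B at chr2:113587328-113594393, both on the minus strand). IL1A was read 8, 14 and 8 times in Pro 1 to 3 and 3, 6 and 6 times in Sen 1 to 3. Pooled over libraries, its level was 2.39 times higher in Pro than in Sen, with a 95% counting interval of 1.24 to 4.77. IL1B had 29, 44 and 48 reads in Pro (3.54, 3.76 and 4.47 CPM) and 9, 23 and 25 in Sen (0.957, 1.68 and 2.28 CPM). Every senescent library was below every proliferating one, and IL1B mRNA fell by 1.23 on the log2 scale (SE 0.24, adjusted p = 0.000127). Neither IL-1 ligand was higher in senescent cells. With every gene of at least 1 read kept in the fit, IL1A changed too, with a log2 fold change of -1.14 (SE 0.45, adjusted p = 0.0297), where 62.9% of 16094 genes did.

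IL6, IL11 and LIF belong to the cytokines that signal through gp130, and they moved in opposite directions. IL6, an inflammatory cytokine often used as the marker of the secretory phenotype, had 16.1, 15.6 and 17.1 CPM in Pro and 5.95, 7.32 and 6.49 CPM in Sen. The groups were apart, and IL6 mRNA fell by 1.29 on the log2 scale (SE 0.12, adjusted p = 8.38e-09). LIF, a cytokine first named for blocking the growth of leukaemia cells, had 109.8, 108.6 and 102.7 CPM in Pro and 34.9, 29.2 and 35.4 CPM in Sen, and fell by 1.70 (SE 0.08, adjusted p = 1.32e-13). No senescent library of LIF came near the lowest proliferating one. IL11, a cytokine linked with fibrosis, had 27.6, 25.0 and 22.3 CPM in Pro and 60.0, 55.4 and 71.0 CPM in Sen. All 3 senescent libraries were above the highest proliferating one, with a log2 fold change of 1.32 (SE 0.10, adjusted p = 1.79e-10). IL6 lies at chr7:22765503-22771621 on the plus strand, IL11 at chr19:55875750-55881831 and LIF at chr22:30636442-30642748, both on the minus strand. Exons of IL6 overlap IL6-AS1 and STEAP1B on the other strand, and those of LIF overlap LIF-AS1 and LIF-AS2. Since the sources used here do not give a strand rule, reads of such pairs cannot be told apart.

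IL12A encodes p35, the chain that pairs with IL12B in IL-12 and with EBI3 in IL-35. It was read 61, 56 and 50 times in Pro (7.44, 4.78 and 4.65 CPM) and 196, 281 and 223 times in Sen (20.8, 20.6 and 20.4 CPM). The senescent libraries lay close together and above all proliferating ones, and IL12A mRNA rose by 1.91 on the log2 scale (SE 0.14, adjusted p = 1.14e-10). IL12A lies at chr3:159706622-159713806 on the plus strand, and its exons overlap IL12A-AS1 on the other strand, from which its reads cannot be told apart. Of its partners, EBI3 rose in mRNA from 0.488, 0.683 and 0.558 CPM in Pro to 5.21, 3.52 and 4.02 CPM in Sen, with a log2 fold change of 2.80 (SE 0.29, adjusted p = 1.89e-08), and IL12B did not pass the filter.

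Of the 3 CXC chemokines, CXCL8 and CXCL12 moved furthest of the 8 tested genes and in opposite directions. CXCL8, the neutrophil attractant also called IL-8 (chr4:74606236-74609433, plus strand), had 15, 10 and 10 reads in Pro and 93, 184 and 299 in Sen. That is 1.83, 0.854 and 0.930 CPM against 9.89, 13.5 and 27.3 CPM. The senescent libraries differed among themselves more than those of any other gene that rose, with a mean of 16.9 ± 9.20 CPM (SD, n = 3), yet the lowest was above every proliferating library. CXCL8 mRNA rose by 3.87 on the log2 scale (SE 0.37, adjusted p = 6.73e-09). The pooled ratio of Sen to Pro was 13.8, with a counting interval of 9.80 to 20.0.

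CXCL1, a neutrophil attractant of the same cluster on chromosome 4, lies 125676 bases beyond CXCL8 (chr4:74735110-74737025, plus strand). It was read 5, 4 and 5 times in Pro and 8, 20 and 26 times in Sen. The pooled level was 3.23 times higher in Sen (counting interval 1.77 to 6.30), and with every gene of at least 1 read in the fit its log2 fold change was 1.76 (SE 0.42, adjusted p = 0.000328). The table holds fractions of reads for CXCL1, a gene with close paralogs, so its counts are uncertain.

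CXCL12, the stromal chemokine that binds CXCR4 and ACKR3, lies at chr10:44865613-44881941 on the minus strand. Its reads dropped from 195, 274 and 228 in Pro to 5, 9 and 2 in Sen, or from 23.8, 23.4 and 21.2 CPM to 0.532, 0.659 and 0.183 CPM. In Sen 3 it was below the level of 3 reads. CXCL12 mRNA fell by 5.56 on the log2 scale (SE 0.21, adjusted p = 1.92e-15), and its pooled level was 52.0 times higher in Pro than in Sen (counting interval 31.8 to 91.4).

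CCL2, the monocyte attractant MCP-1 (chr17:32582293-32584227, plus strand), had 31.7, 33.0 and 32.3 CPM in Pro and 48.9, 52.0 and 46.6 CPM in Sen. The change was small and the groups were apart, with a log2 fold change of 0.61 (SE 0.08, adjusted p = 1.19e-06).

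Levels of different genes were compared only per kilobase of the canonical transcript. In Pro, the order by mean mRNA RPKM, which is CPM divided by the transcript's length in kilobases, was CCL2 (43.6 ± 0.852), LIF (27.6 ± 0.974), IL6 (14.5 ± 0.675), CXCL12 (11.8 ± 0.720), IL11 (10.5 ± 1.10), IL12A (3.90 ± 1.09), IL1B (2.60 ± 0.322), CXCL8 (0.734 ± 0.330), IL1A (0.482 ± 0.112) and CXCL1 (0.402 ± 0.114), each as mean ± SD of 3 libraries. The ranges of CXCL12 and IL11 overlapped, as did those of CXCL8, IL1A and CXCL1 from one to the next. In Sen, CCL2 led again (66.3 ± 3.66 RPKM), followed by IL11 (26.1 ± 3.36), IL12A (14.3 ± 0.164), CXCL8 (10.3 ± 5.60), LIF (8.57 ± 0.889), IL6 (5.85 ± 0.612), CXCL1 (1.33 ± 0.653), IL1B (1.09 ± 0.441), CXCL12 (0.237 ± 0.128) and IL1A (0.216 ± 0.0568). There CXCL8 overlapped both IL12A and LIF, IL1B overlapped CXCL1, and IL1A overlapped CXCL12. CCL2 had the highest level per length in both states, while IL11 and IL12A were below LIF and IL6 in Pro and above IL6 in Sen, where both also had ranges above that of LIF.

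Ribosome-protected fragments (RPF) in the CDS were sparse for all 10 genes. Summed over the 10, the 4 deep Ribo-seq libraries held between 69 (Pro 2) and 205 reads (Sen 1), while Pro 1 held 4.33 and Sen 2 held 4. Only CCL2, IL11 and LIF passed the filter, and in all 3 the RPF changed in the direction of the mRNA. Over all 7521 genes tested for RPF, 54.4% changed (27.5% higher and 26.9% lower). A single read in Pro 1 or Sen 2 was above the filter's level of 15.8 CPM, and LIF passed with 1 read in Sen 2 as the third library at that level. Of its deep libraries, IL11 was at that level in Sen 1 and Sen 3 alone, and it passed through single reads in Pro 1 and Sen 2. Of the 3 tested genes, IL11 was the one whose groups did not overlap, which 32.5% of the genes tested did.

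**Figure D2:**
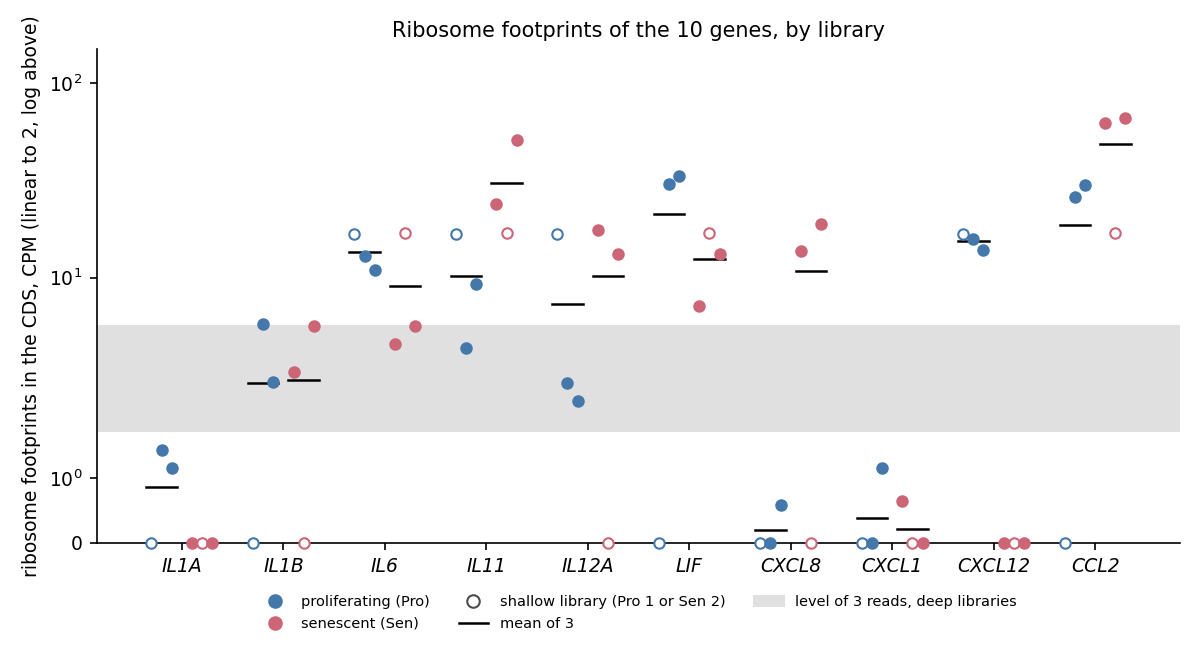
Ribosome footprints in the CDS of each gene in every Ribo-seq library, in CPM on an axis that is linear up to 2 and logarithmic above. Open symbols mark Pro 1 and Sen 2, where 1 read stands at 16.8 or 17.1 CPM, and CXCL12 has footprints in all 3 Pro libraries and none in Sen.

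CCL2 had the most footprints, with 0, 18 and 52 reads in Pro 1 to 3 and 96, 1 and 35 in Sen 1 to 3. In the deep libraries that is 25.9 and 30.1 CPM in Pro and 62.4 and 66.0 CPM in Sen. Its RPF rose by 1.14 on the log2 scale (SE 0.27, adjusted p = 0.000357). IL11 had 1, 3 and 16 reads in Pro and 37, 1 and 27 in Sen, and rose by 1.96 (SE 0.40, adjusted p = 4.47e-05), with the lowest Sen library at 17.1 CPM and the highest Pro library at 16.8 CPM, each of them 1 read in a shallow library. LIF had 0, 21 and 58 reads in Pro and 11, 1 and 7 in Sen, and fell by 1.78 (SE 0.39, adjusted p = 0.000139). In the deep libraries LIF stood at 30.2 and 33.6 CPM in Pro and 7.15 and 13.2 CPM in Sen. With DESeq2 in place of edgeR, IL11 alone of the 3 kept an adjusted p under 0.15 (0.0953), while CCL2 had 0.311 and LIF 0.416.

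The other 7 genes were too sparse for the test over all 6 Ribo-seq libraries. Without Pro 1 and Sen 2, 2 deep libraries per state remained and 7 of the 10 genes could be tested, against a background of 53.8% of 9213 genes changed. All 7 then changed. CXCL8, IL12A and CXCL12 were kept by the filter through the state where they had more reads, so this count is not evenly set against that background. CXCL8, with 0, 0 and 1 reads in Pro and 21, 0 and 10 in Sen, had a log2 fold change of 4.86 (SE 0.74, adjusted p = 1.33e-05), and its pooled ratio over the 6 libraries was 33.0, with a counting interval of 5.49 to 1344. IL12A, with 1, 2 and 4 reads in Pro and 27, 0 and 7 in Sen, had 2.67 (SE 0.50, adjusted p = 0.000182). IL6, with 1, 9 and 19 reads in Pro and 7, 1 and 3 in Sen, had -1.24 (SE 0.47, adjusted p = 0.0395). CCL2, IL11 and LIF kept their directions, at 1.15, 2.04 and -1.87.

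CXCL12 had 1, 11 and 24 footprint reads in Pro and none in any senescent library. Its RPF was therefore at least 11.3-fold lower in Sen, taking 3 reads over the pooled senescent libraries as the limit that a count of 0 allows, and it passed the test without Pro 1 and Sen 2 (adjusted p = 1.02e-05). IL1B had 0, 4 and 5 reads in Pro and 5, 0 and 3 in Sen, a pooled Sen to Pro ratio of 0.945 with a counting interval of 0.317 to 2.76. IL1A (3 reads in Pro, 0 in Sen) and CXCL1 (2 reads in Pro, 1 in Sen after rounding) were at or below the limit of 3 reads in both states, so no difference was detectable at this depth. The change in IL1B mRNA thus had no counterpart that these footprint counts could show.

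Translation efficiency (TE), the change of RPF relative to mRNA, was tested for CCL2, IL11 and LIF as the interaction of library type and state, with the lysate as a block. None of the 3 passed, where 9.37% of 7473 genes did (4.88% higher and 4.48% lower). The TE log2 fold change was 0.58 for CCL2 (SE 0.29, adjusted p = 0.271), 0.54 for IL11 (SE 0.43, adjusted p = 0.526) and -0.20 for LIF (SE 0.42, adjusted p = 0.832). At an unadjusted p under 0.05 the count was also 0 of 3 with edgeR, DESeq2 and limma voom, with a smallest p of 0.0509 for CCL2 in edgeR. Without Pro 1 and Sen 2, none of the 7 genes tested passed, with 13.1% of 9151 genes passing. There the TE log2 fold changes of CXCL8 (1.15, SE 1.31), IL12A (0.56, SE 0.61) and IL6 (0.19, SE 0.55) had errors above the estimate.

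The ratio of RPF to mRNA in single lysates shows the spread behind these errors. For CCL2, with 0.5 added to each count, log2 RPF over mRNA was -1.92, -0.31 and -0.09 in Pro 1 to 3 and 0.36, -1.02 and 0.52 in Sen 1 to 3. The lowest value in each state came from its shallow library, and the deep libraries of the 2 states did not overlap. For IL11 the values were -0.13, -2.31 and -1.23 in Pro and -1.30, -1.12 and -0.45 in Sen, so the states overlapped. For LIF they were -3.71, -1.81 and -1.60 in Pro and -2.22, -0.19 and -1.33 in Sen, which overlapped too.

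**Figure D3:**
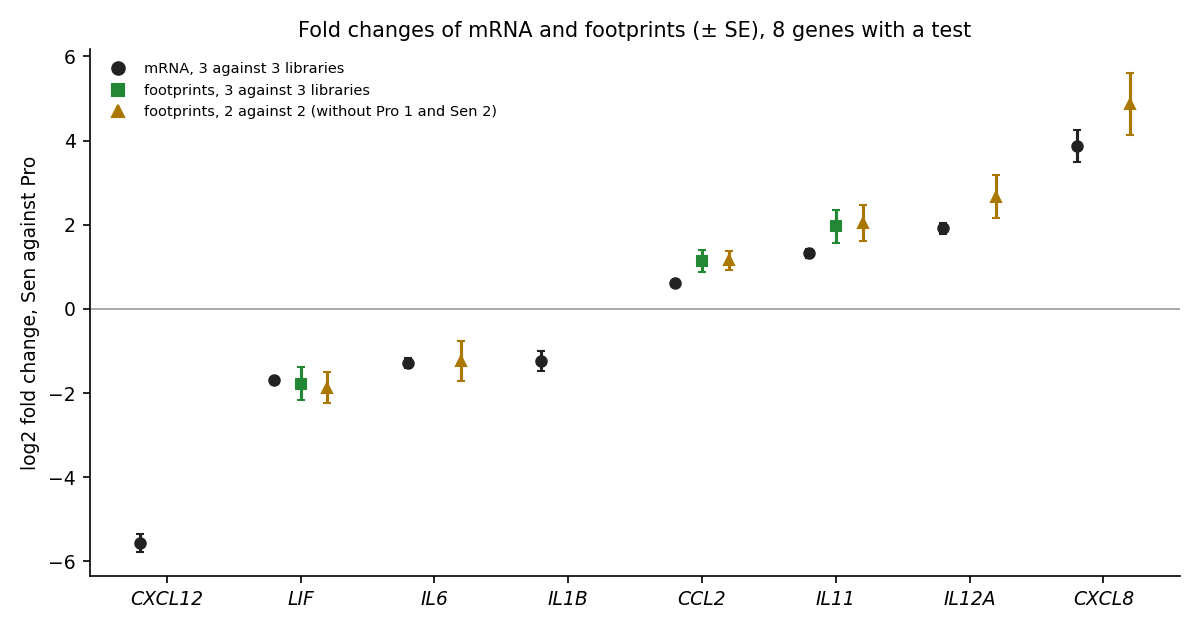
Log2 fold change of Sen against Pro with its SE for mRNA (circles), footprints over all 6 Ribo-seq libraries (squares) and footprints without Pro 1 and Sen 2 (triangles), for the 8 genes tested in mRNA. Footprint changes lie on the same side of 0 as mRNA changes in all 6 genes with a plotted footprint value, and the CXCL12 footprint value is left out because its senescent counts are all 0.

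RNA-seq reads were spread over UTRs and CDS in shares that differed between the genes. Over all genes, 24.9% of such reads were in 3′ UTRs in Pro and 27.7% in Sen. LIF, whose 3′ UTR makes up 82.6% of its canonical transcript, had 75.8% of its reads there in Pro and 77.0% in Sen. CXCL12 had 71.3% of its reads in the 3′ UTR in Pro, and IL11 had 53.1% in Pro and 52.5% in Sen. IL6 was at the other end, with 5.61% of reads in the 3′ UTR in Pro (95% Wilson interval 3.91 to 7.99%) and 3.96% in Sen (2.10 to 7.36%), although that part makes up 37.7% of the transcript. CCL2 had 34.6% and 32.4% of its reads in the 5′ UTR, which is 8.77% of its length. Shares of length follow the GENCODE canonical transcript and shares of reads follow the regions in the authors' counts. The 2 may rest on different transcript models.

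Those shares were close in the 2 states for most of the genes. CXCL8 had the widest gap among genes with over 30 reads in each state, with 11 of 35 reads in the 3′ UTR in Pro (31.4%, Wilson interval 18.6 to 48%) and 290 of 576 in Sen (50.3%, 46.3 to 54.4%). By library the share was 10 to 40% in Pro and 41.9 to 54.3% in Sen. IL12A had 18% of its reads in the 5′ UTR in Pro (12.9 to 24.5%) and 25% in Sen (21.9 to 28.3%), and its library ranges overlapped, at 14 to 23.2% and 21.4 to 30%. These intervals cover counting error only, since amplified reads are not independent molecules.

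**Figure D4:**
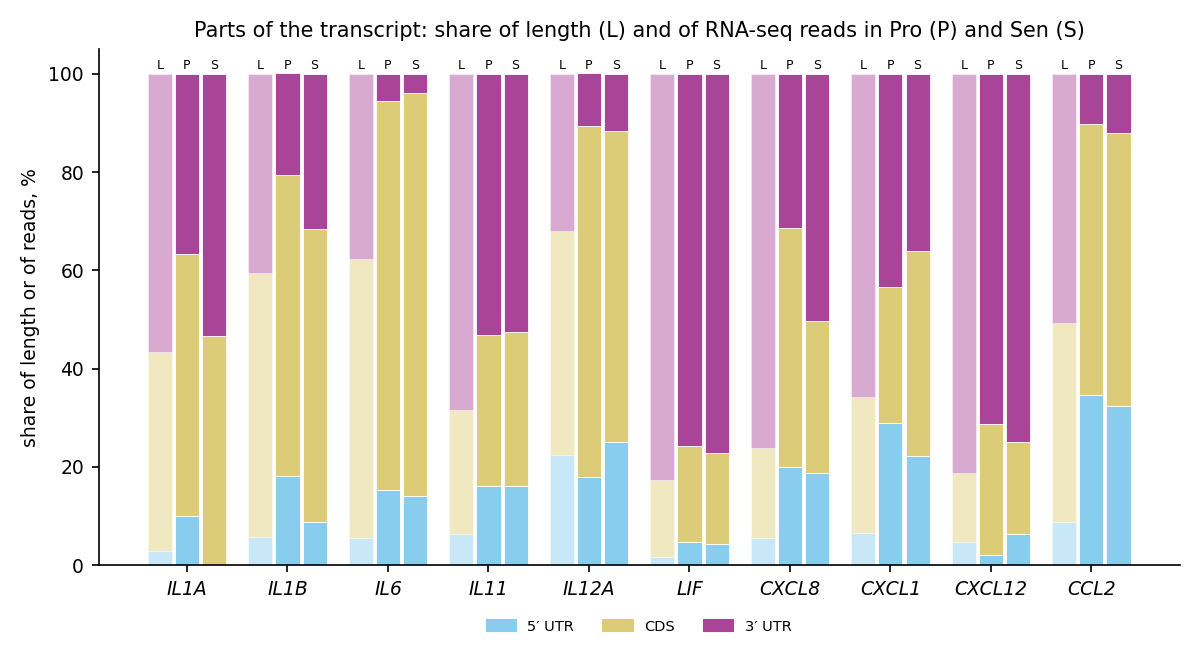
Share of the canonical transcript's length (L, pale) and of RNA-seq reads in Pro (P) and Sen (S) that fall in the 5′ UTR, CDS and 3′ UTR of each gene, in percent. IL6 and CCL2 have few 3′ UTR reads for their length, while LIF and CXCL12 have most of their reads there. Lengths and reads may rest on different transcript models.

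The receptors of these ligands split as well. Of 14 receptor genes, 9 passed the filter in mRNA and all 9 changed, 5 higher and 4 lower, against 73.6% of all genes. CXCR4, ACKR3 and IL12RB2 were below the filter's level of 0.9255 CPM in every Pro library and passed on Sen reads alone. The count is therefore not evenly set against that share. Both receptors of CXCL12, whose own mRNA fell, were higher in Sen. CXCR4 had 0 reads in all 3 Pro libraries and 18, 29 and 14 in Sen, 17.0-fold above the limit of 3 reads over the pooled Pro libraries (adjusted p = 1.19e-07). The 95% counting interval for Sen over Pro begins at 13.4. ACKR3, the scavenging receptor for CXCL12, had 2, 2 and 1 reads in Pro and 42, 60 and 48 in Sen, and rose by 4.66 on the log2 scale (SE 0.34, adjusted p = 1.02e-10). Footprints of ACKR3 numbered 0, 0 and 0 in Pro and 20, 0 and 6 in Sen. IL12RB2, a chain of the receptor for IL-12, had 3 reads over the Pro libraries and 179 over the Sen libraries, a pooled ratio of 50 with a counting interval of 16.8 to 245 (adjusted p = 4.11e-11). In mRNA these 3 receptors went from a few reads at most to 1.28 to 5.48 CPM, with no overlap between the states in any of the 3. Footprints of the other 2 were fewer than those of ACKR3. CXCR4 had 0, 0 and 0 in Pro and 4, 1 and 1 in Sen, and IL12RB2 had 0, 0 and 0 in Pro and 2, 0 and 0 in Sen.

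The receptors of IL-1 and of the gp130 cytokines moved less. IL1RAP, the accessory chain of the IL-1 receptor, had 8.29, 6.58 and 7.82 CPM in Pro and 16.2, 16.7 and 14.9 CPM in Sen, and rose by 1.09 (SE 0.13, adjusted p = 1.26e-07). IL1R1, the signalling receptor itself, fell by 0.44 (SE 0.08, adjusted p = 2.96e-05), from 61.4 ± 2.14 to 45.4 ± 0.688 CPM. Among the gp130 receptors, IL11RA rose by 0.68 (adjusted p = 2.69e-05) as IL11 did, and IL6R fell by 0.79 (adjusted p = 1.11e-05) as IL6 did. IL6ST, which encodes gp130, had 671, 717 and 843 CPM in Pro and 653, 643 and 642 CPM in Sen and fell by 0.20 (SE 0.08, adjusted p = 0.0300), and without Pro 3 its adjusted p was 0.243. LIFR fell by 0.24 (adjusted p = 0.0193) with overlapping groups, and with CDS reads alone its adjusted p was 0.306. In RPF 3 receptors were tested and all 3 changed, where 54.4% of all genes did, IL1RAP at 0.98 (adjusted p = 0.0413), IL6ST at -0.57 (adjusted p = 0.00359) and LIFR at -0.80 (adjusted p = 0.00566), none of which passed with DESeq2. IL1RAP had 1, 5 and 19 footprint reads in Pro and 28, 1 and 13 in Sen. Of its deep libraries, Sen 1 and Sen 3 alone were at the filter's level of 15.8 CPM, beside single reads in Pro 1 and Sen 2. The RPF count is therefore not evenly set against that share.

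**Figure D5:**
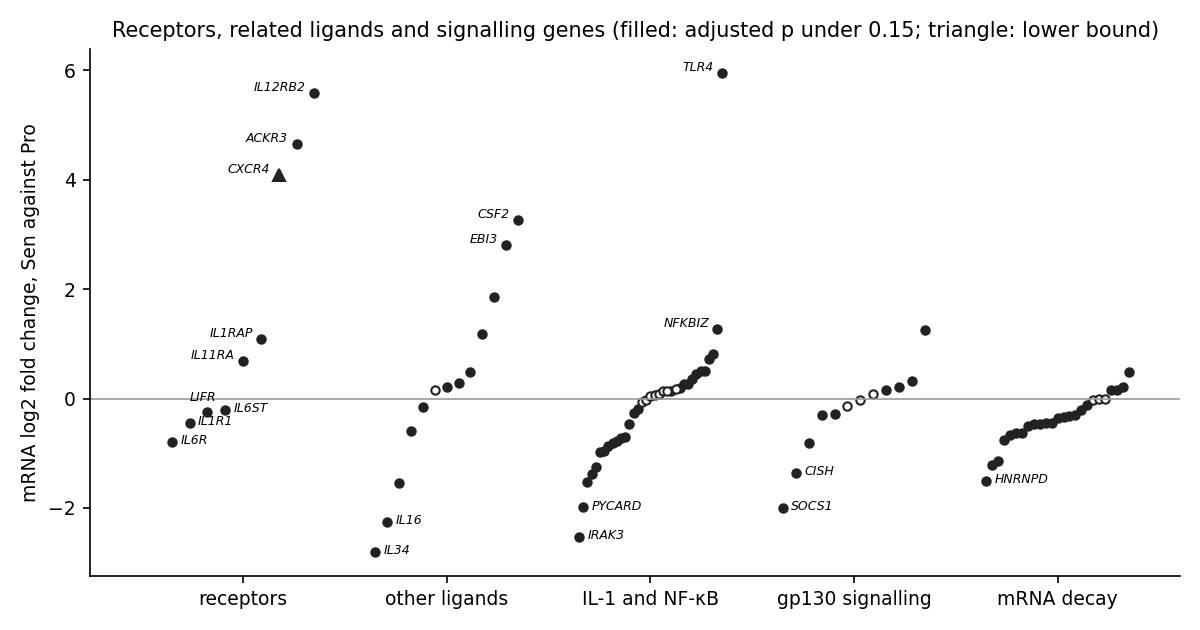
mRNA log2 fold change of Sen against Pro for the tested genes of 5 lists, each list sorted by value, with filled points for an adjusted p under 0.15. A triangle marks CXCR4, drawn at 17.0-fold, its Sen level over the limit of 3 reads in the pooled Pro libraries. IL12RB2, ACKR3, CXCR4 and TLR4 lie highest, where the points of IL12RB2 and TLR4 rest on 3 and 2 Pro reads, and 18 of the 25 genes of mRNA decay lie below 0 with a filled point.

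Among 41 other interleukins, chemokines and colony-stimulating factors, 13 passed the filter in mRNA, of which 7 rose and 5 fell, where 73.6% of all genes changed. CSF2 and EBI3 were below the filter's level of 0.9255 CPM in every Pro library, and IL34 in every Sen library. Each passed through the other state alone, so this count is not evenly set against that share. CSF2, the granulocyte and macrophage growth factor GM-CSF, had 4, 2 and 1 reads in Pro and 18, 30 and 30 in Sen, with a log2 fold change of 3.26 (SE 0.41, adjusted p = 4.39e-07). EBI3, the partner of IL12A described above, was the other of the 2 highest. IL34, a ligand of the CSF1 receptor, fell by 2.80 (SE 0.49, adjusted p = 3.41e-05) and IL16, an attractant of CD4 cells, by 2.25 (SE 0.23, adjusted p = 1.37e-08). The CXC chemokines nearest in kind to CXCL8 and CXCL1, that is CXCL2, CXCL3, CXCL5 and CXCL6, did not pass the filter and were chosen here after their values were seen. CXCL2 had 5 reads over the Pro libraries and 42 over the Sen libraries, a pooled ratio of 7.04 (counting interval 2.79 to 22.8), and CXCL3 had 5 and 37, a ratio of 6.20 (2.43 to 20.2). CXCL5 (22 and 24 reads) had an interval of 0.491 to 1.71. The list's median log2 fold change was 0.22. In RPF, 4 of the 41 were tested, 1 rose and 1 fell, where 54.4% of all genes changed.

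Genes of IL-1 and NF-κB signalling, the pathway placed above IL6 and CXCL8, also moved both ways. Of 39 such genes, 35 were tested in mRNA, 12 rose, 15 fell and 8 did not pass, with a median log2 fold change of 0.05. That count is close to the 73.6% changed over all genes. TLR4, a receptor for microbial and danger signals, had 2 reads over the Pro libraries and 161 over the Sen libraries, a pooled ratio of 67.5 (counting interval 18.4 to 562, adjusted p = 4.57e-11). It was below the filter's level of 0.9255 CPM in every Pro library and passed on Sen reads alone. Its footprints numbered 1, 0 and 0 in Pro and 3, 0 and 1 in Sen. NFKBIZ, a nuclear partner of NF-κB needed for IL6 induction, rose by 1.28 in mRNA (SE 0.11, adjusted p = 2.24e-09) and by 2.26 in RPF (SE 0.39, adjusted p = 2.03e-06). In RPF it was below the filter's level of 15.8 CPM in every Pro library and passed on Sen reads alone, 4 of them in Sen 2. With TLR4 and NFKBIZ in them, the list's mRNA and RPF counts are not evenly set against the shares over all genes. IRAK3, a brake on signalling from IL-1 receptors, fell by 2.53 (SE 0.25, adjusted p = 1.09e-08), and PYCARD, the inflammasome adaptor, by 1.99 (SE 0.16, adjusted p = 6.48e-10). Of the 5 genes for NF-κB subunits, named after their values were seen, RELA alone rose in mRNA, by 0.50 (adjusted p = 1.17e-05). NFKB1 (-0.96, adjusted p = 4.15e-09), RELB (-0.97, adjusted p = 2.67e-07), REL (-0.87, adjusted p = 0.00132) and NFKB2 (-0.19, adjusted p = 0.0929) fell. The RPF log2 fold change was 0.64 for NFKB2 (adjusted p = 0.0168), 0.47 for RELA (adjusted p = 0.0562) and -0.85 for NFKB1 (adjusted p = 0.00632). REL and RELB were not tested in RPF. In RPF, 22 of the 39 were tested, 10 rose and 4 fell, with a median log2 fold change of 0.38, where 27.5% of all genes rose and 26.9% fell. DESeq2 called 3 of them.

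Downstream of gp130, 12 of 13 signalling genes were tested in mRNA, 4 rose and 5 fell, close to the 73.6% changed over all genes, with a median log2 fold change of -0.07. SOCS1 and CISH, feedback inhibitors of cytokine signalling, fell by 2.0 (SE 0.14, adjusted p = 3.09e-11) and 1.36 (SE 0.27, adjusted p = 0.000134). STAT3, the main transcription factor of the pathway, had 136, 141 and 144 CPM in Pro and 171, 174 and 185 CPM in Sen, a rise of 0.33 (SE 0.07, adjusted p = 0.000268). PTPN11, a phosphatase that binds gp130, rose by 0.22 (SE 0.07, adjusted p = 0.00833), and with library totals in place of TMM factors its adjusted p was 0.161. In RPF, 7 were tested, 2 rose and none fell, below the 54.4% changed over all genes, and DESeq2 called 0.

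Of 25 genes of mRNA decay and AU-rich element binding, all 25 were tested in mRNA, 4 rose and 18 fell, where 36.6% of all genes rose and 37.0% fell, with a median log2 fold change of -0.36 against -0.01 for all genes. HNRNPD, which encodes the AU-rich element binding protein AUF1, fell by 1.5 in mRNA (SE 0.08, adjusted p = 6.94e-13) and by 1.85 in RPF (SE 0.18, adjusted p = 7.71e-14). ZFP36L1, a decay factor of the tristetraprolin family, rose by 0.48 in mRNA (SE 0.08, adjusted p = 9.21e-06) and by 0.78 in RPF (SE 0.18, adjusted p = 0.000264), where DESeq2 gave 0.68 (adjusted p = 0.237). RC3H2, a roquin, rose by 0.21 in mRNA (SE 0.07, adjusted p = 0.0134), and with library totals its mRNA adjusted p was 0.204. Its RPF value was -0.73 (SE 0.37, adjusted p = 0.104), a call that was lost with DESeq2 (adjusted p = 0.691), with limma voom (adjusted p = 0.182) and without Pro 2, Pro 3, Sen 1 or Sen 3 in turn (adjusted p from 0.220 to 0.433). In RPF, 20 were tested, 1 rose and 13 fell, where 27.5% of all genes rose and 26.9% fell, and DESeq2 called 4. Of the genes with a TTATTTATT nonamer shown above, IL11 and CXCL8 rose and IL1B and LIF fell in mRNA. CXCL1, which did not pass the filter, had a pooled level 3.23 times higher in Sen. Whether the nonamer goes with a direction was not tested.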

How the data were processed

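Ribo-seq and RNA-seq libraries came from 6 lysates of IMR90, 3 per state. The authors deposited 1 table per library with an expected count per gene symbol for 5′ UTR, CDS, 3′ UTR and non-coding classes. Shared reads are fractions: 33.3 to 35.3% of non-zero RNA-seq values and 12.1 to 22.7% of Ribo-seq values were not whole. The submitters' processing notes name cutadapt 1.18, Bowtie 1.0.1, SAMtools 1.8 and DESeq2 1.22.2. Genome build, multi-mapping rule and strand rule are not given in the sources used here. The study itself used anota2seq at a false discovery rate of 15%.

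mRNA was the sum of 5′ UTR, CDS and 3′ UTR reads, and RPF was CDS reads, rounded to whole numbers after summing. The 16451 symbols with a CDS read in some library entered. Each layer was fitted with edgeR 4.0.16 (filterByExpr, TMM, quasi-likelihood test, two-sided, Benjamini-Hochberg over all genes tested, threshold 0.15) in R 4.3.3. TE was the interaction in all 12 libraries with the lysate as a block, since the protocol takes both libraries from 1 lysate. Fits were tested on simulated data. p-values measure the spread between these 3 cultures per state. DESeq2 1.42.0, limma 3.58.1 (voom), other scalings, filters, regions, blocks and each library left out were the alternatives. Pro and Sen libraries of the same number did not deviate together (correlations -0.07 to 0.09). RNA-seq and Ribo-seq libraries of the same lysate, which are paired, gave -0.05 to 0.07, so this check cannot show whether cultures were paired. Numbers were not taken to pair cultures, and a fit with the number as a block is given below. No libraries were near-copies (chi-square over degrees of freedom 1.3 to 9.8).

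Sequences came from GENCODE v44 on GRCh37 and RefSeq on GRCh38.p14, matched by symbol, and 1 symbol, STING1, was read under its older name. CPM values use TMM-scaled library sizes. Pooled ratios use summed reads over library totals with exact binomial 95% intervals. Named genes were the 10 ligands, all tested receptors, and the 2 highest and 2 lowest mRNA changes per other list among changed genes whose groups did not overlap. The genes and lists were chosen with earlier results of these data known. Some items that this rule would name are not reported here.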

Additional observations from a re-analysis of the deposited data

Results flagged for a closer look

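IL11 was flagged for Ribo-seq reads outside the CDS, which no main comparison used. Reads in its 3′ UTR numbered 5.17, 2 and 1.83 in Sen 1 to 3, a sum of 9.0, and 0 in all 3 Pro libraries. Over all genes, 4.45% of senescent and 1.85% of proliferating Ribo-seq reads in UTRs and CDS were in 3′ UTRs. The CDS of IL11 held 65 reads in Sen and 20 in Pro, so few 3′ UTR reads could be seen in Pro. CXCL8 also had 3′ UTR reads, 6, 0 and 1 in Sen beside 31 in its CDS, and 1, 0 and 0 in Pro beside 1. The fractions in IL11 show reads shared with other positions or genes, and what produced the 3′ UTR reads was not tested.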

How the results depend on the processing

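In mRNA, all 8 tested ligands kept their direction and their adjusted p under 0.15 in every alternative that could test them, and the count was 9 to 10 with 1 library left out, as IL1A, CXCL1 or both then passed the filter. The mRNA counts of the lists ranged with 1 library left out from 11 to 15 for the other ligands (12 with all), 8 to 9 for the receptors (9), 25 to 27 for IL-1 and NF-κB (27), 7 to 9 for gp130 (9) and 20 to 21 for mRNA decay (22). With genes of at least 1 read, 20 other ligands changed. Library totals in place of TMM moved the median of all genes to -0.11 in mRNA and -0.14 in RPF, and the share of calls that were higher from 49.8 to 40.4% and from 50.5 to 39.5%. IL6ST lost its call without Pro 3, LIFR with CDS reads alone, and PTPN11 and RC3H2 with library totals.

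RPF calls depended far more on the processing. DESeq2 left 1 of the 3 ligands and 0 other ligands, 0 receptors, 3 IL-1 and NF-κB genes, 0 gp130 genes and 4 decay genes, against 2, 3, 14, 2 and 14 with edgeR. With at least 1 read the counts were 7 ligands, 8 other ligands and 6 receptors. With at least 10 counts in every library no ligand was left to test, and 0 other ligands, 1 receptor, 1 IL-1 and NF-κB gene and 4 decay genes changed. Without Pro 1 and Sen 2 the counts were 7 ligands, 4 other ligands, 5 receptors and 4 gp130 genes. The gp130 count was 1 with limma voom and 1 at an adjusted p under 0.05. With 1 library left out, counts ranged from 3 to 5 for the ligands (5 without Sen 2 and 5 without Sen 3), 1 to 3 for the other ligands (1 without Pro 3), 2 to 3 for the receptors, 5 to 16 for IL-1 and NF-κB (5 without Pro 3, 8 without Sen 1), 1 to 3 for gp130 (1 without Pro 2, Pro 3 or Sen 1) and 7 to 15 for decay (7 without Pro 3). PTPN11 turned to -0.08 with library totals, -0.04 without Pro 1 and -0.02 without Pro 3, and was highest at 0.16 without Pro 2 among the fits with 1 library left out. The cause was not tested.

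Culture numbers were not taken to pair Pro with Sen. With the number as a replicate block, 8 ligands changed in mRNA and 2 in RPF (LIF had -1.07, adjusted p = 0.183), and the RPF counts of the lists were 0 other ligands, 1 receptor, 6 IL-1 and NF-κB genes, 1 gp130 gene and 9 decay genes.

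TE of the ligands gave 0 calls in every alternative, from 0 to 0 with 1 library left out. TE of LIF turned to 0.13 with DESeq2, 0.78 with limma voom, 0.05 without Pro 3 and 0.41 without Sen 1, and ranged from -0.43 to 0.41 with 1 library left out. Of 56 genes in the other lists, 7 changed in TE, and 0 did with DESeq2, 0 with limma voom, 4 when 1 read sufficed, 2 when every library needed 10 counts, 14 without Pro 1 and Sen 2, 13 without the lysate block, 10 with the replicate block in its place, 3 with UTR reads added to RPF and 0 at an adjusted p under 0.05. With 1 library left out they numbered 0 to 11, with 11 without Pro 1, 0 without Pro 2 or Sen 3 and 1 without Pro 3 or Sen 1. In Pro 1 and Sen 2, 1 Ribo-seq read is worth 16.8 and 17.1 CPM, which limits the precision of RPF and TE for these genes.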
